A study of Homo sapiens with 18 samples.

Results

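The genes described here are 52 human genes of DNA repair outside homologous recombination and of the DNA damage checkpoint, taken by symbol from a count table of 63241 genes. They fall into 8 sets: 7 core end joining factors, 4 end processing factors and polymerases, 2 factors of break-end choice, 12 genes of base excision and single-strand break repair, 4 of mismatch repair, 8 of nucleotide excision repair, 12 checkpoint kinases and mediators, and 3 genes of break-site chromatin signalling. All 52 passed the filter on low counts in both fits. The title names the plant flavonoids genistein and baicalein as radiosensitizers for a lutetium-labelled PSMA ligand, and each repair route is therefore described on its own. Poly(A) RNA was sequenced in 18 libraries, 3 in each of 6 groups. LNCaP was given genistein at 10 µM, genistein at 20 µM, baicalein at 10 µM or baicalein at 20 µM over 24 h, or was left untreated, as was PC-3. The labels call the controls untreated, while the treatment protocol names a DMSO vehicle control. No irradiated library is named in the labels, so every level below is that of unirradiated cells. Both lines come from metastases of prostate cancer, LNCaP from a lymph node and PC-3 from bone, and LNCaP alone depends on androgen signalling. The genotype label of both is wild type. The labels do not say that the replicates were separate cultures, so p-values measure only how far these libraries differ among themselves, and that variation may be technical.

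Cells close a double-strand break without a template by end joining. The Ku heterodimer, encoded by XRCC5 and XRCC6, clamps the ends and recruits the kinase DNA-PKcs (PRKDC), nucleases and polymerases trim and fill them, and LIG4 with XRCC4 seals them. A back-up route joins ends at short matching stretches and depends on the polymerase encoded by POLQ. Base excision removes oxidised, deaminated or lost bases through glycosylases, the endonuclease APEX1, the polymerase POLB and the ligase LIG3 held by XRCC1, while PARP1 and PARP2 mark the strand breaks that arise on the way. Mismatch repair corrects copying errors, and nucleotide excision cuts out bulky lesions. The kinases ATM and ATR signal breaks and stalled forks to CHEK2, CHEK1 and WEE1, which hold the cell cycle. Ionising radiation produces both oxidised bases and strand breaks, and these routes are among those known to act in irradiated cells.

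Promoters were read for the members that the RefSeq table of GRCh38.p14 covers, 47 of 52, as the 250 bases before and 50 after each gene's start. Each window was searched on both strands for TTCCCGC, a core of the site bound by E2F factors, for CCAAT, the box of NF-Y, and for TTTGAA, the cell cycle homology element. The 4 windows printed were chosen after the values were seen. CLSPN, PARP1 and POLQ were lower with both drugs at 20 µM and each holds the E2F core. RNF168 was higher with baicalein at 20 µM and holds none of the 3 motifs. These 4 do not stand for the list, since genes called higher hold the core as well. Capitals mark the motifs on either strand.
CLSPN, chr1:35769929-35770228, minus strand: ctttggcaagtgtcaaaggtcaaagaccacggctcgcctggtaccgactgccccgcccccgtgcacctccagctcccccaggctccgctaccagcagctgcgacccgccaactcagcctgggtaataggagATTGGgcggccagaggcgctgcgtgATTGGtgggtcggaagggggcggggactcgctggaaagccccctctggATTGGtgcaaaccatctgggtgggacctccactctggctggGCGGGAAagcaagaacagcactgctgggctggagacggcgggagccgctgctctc
PARP1, chr1:226408044-226408343, minus strand: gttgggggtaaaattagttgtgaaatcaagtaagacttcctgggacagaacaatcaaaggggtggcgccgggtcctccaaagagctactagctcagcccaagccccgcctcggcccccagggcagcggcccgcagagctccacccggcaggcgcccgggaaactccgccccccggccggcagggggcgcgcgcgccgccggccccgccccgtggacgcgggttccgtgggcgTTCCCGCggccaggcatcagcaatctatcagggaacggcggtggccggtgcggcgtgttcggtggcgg
POLQ, chr3:121545939-121546238, minus strand: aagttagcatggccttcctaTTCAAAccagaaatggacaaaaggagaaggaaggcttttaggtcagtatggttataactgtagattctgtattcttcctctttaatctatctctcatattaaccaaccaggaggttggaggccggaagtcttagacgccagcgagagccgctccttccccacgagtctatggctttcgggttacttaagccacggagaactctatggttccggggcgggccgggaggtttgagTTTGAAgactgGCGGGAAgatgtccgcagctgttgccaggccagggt
RNF168, chr3:196503719-196504018, minus strand: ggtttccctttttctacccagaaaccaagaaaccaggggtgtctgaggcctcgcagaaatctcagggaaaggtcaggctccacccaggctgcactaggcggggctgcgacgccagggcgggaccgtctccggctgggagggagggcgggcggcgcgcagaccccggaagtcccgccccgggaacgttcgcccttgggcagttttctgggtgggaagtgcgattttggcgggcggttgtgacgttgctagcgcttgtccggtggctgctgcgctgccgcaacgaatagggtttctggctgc
The E2F core stood in 9 of the 47 windows (19.15%), against 2301 of all 35116 windows in the promoter table (6.55%). Each member had 1 window, the one nearest to its annotated start. The background took every window without that choice and was not matched for expression or base composition, so the shares compare unlike sets. Those 9 belong to genes of both directions: with baicalein at 20 µM, CLSPN, PARP1 and POLQ were called lower, and PAXX, XRCC1, PARP2, APTX, MSH6 and RAD9A were called higher. Among members with a window, the core stood in 3 of the 17 called lower and 6 of the 15 called higher. CCAAT stood in 25 of the 47 (53.19%, against 34.6% of all windows), with 3 copies each in CLSPN, CHEK2, ERCC2 and PMS2, and TTTGAA in 6 (12.77%, against 15.2%). These matches describe the letters of the windows and say nothing of a factor's binding.

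Levels are given as CPM, the count of a gene scaled to a common library total after TMM correction, and 3 values of a group stand in the order of replicates 1, 2 and 3. Per kilobase of exon, the Ku subunits led in both lines: XRCC6 stood at 156 ± 8.23 CPM per kb in PC-3 and 163 ± 12.2 CPM per kb in LNCaP, and XRCC5 at 85.5 ± 8.48 CPM per kb in PC-3 and 58.9 ± 3.96 CPM per kb in LNCaP (SD, n = 3). APEX1 and PARP1 took the next places in both lines. At the low end NEIL1 had 0.210 ± 0.0596 CPM per kb in PC-3 and 0.812 ± 0.154 CPM per kb in LNCaP, and UVSSA, the last of 52 in PC-3, had 0.192 ± 0.0501 CPM per kb there. LIG4 and XRCC4 lay far below Ku on the same scale per kilobase in both lines. The length used merges all annotated exons of a gene, 15773 bases for UVSSA and 6938 for NEIL1. The order of genes on this scale thus depends on the annotation. Total counts ran from 10013567 to 18445711 per library, and the lowest count of any member was 4, for CLSPN with baicalein at 20 µM. The NEBNext Ultra kit does not mark the strand, and the spans of 22 members, introns included, share bases with the span of another counted gene. Where exons of both genes overlap, reads cannot be assigned to one of the pair. How much of each shared stretch is exon in both was not measured. The partners with long shared stretches are named beside the results. In these bulk libraries fewer cells of a kind and less RNA per cell cannot be told apart.

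Changes were called by the edgeR quasi-likelihood test at a Benjamini-Hochberg adjusted p under 0.05 over all genes tested, and every adjusted p below is of that test unless DESeq2 is named. Genistein at 20 µM called 3 members higher and 7 lower, 19.2% of the 52, against a background of 16.4% of 16985 genes called in either direction (8.31% higher, 8.12% lower). Baicalein at 20 µM called 18 higher and 19 lower, 71.2% of the 52, against 57.2% of all genes (29.4% higher, 27.8% lower). PC-3 differed from LNCaP in 37 members, 23 higher and 14 lower, or 71.2% of the 52, while 74.9% of 17259 genes were called (37% higher, 37.9% lower). By these edgeR counts the shares with genistein and in PC-3 thus lay near that of any gene, and the share with baicalein lay above it, a difference that was not tested. The members were chosen with earlier results of these data known. Their median SD of log2 CPM within LNCaP groups was 0.205, against 0.237 for all genes tested. The part of either in the higher share was not tested. The median log2 fold change of the members was near 0 in all 3 comparisons: 0.003 with genistein at 20 µM, 0.016 with baicalein at 20 µM and 0.026 in PC-3, against 0.050, 0.038 and -0.024 over all genes tested. With each drug at 20 µM the calls ran in both directions. The genistein count was 16 by the DESeq2 Wald test (16.6% of all genes), 3 higher and 13 lower, where 1384 of all genes were higher and 1879 lower. How near the genistein share lay to that of all genes thus depended on the method. By edgeR the genistein count was 5 without genistein 20 µM replicate 2 (9.64% of all genes) and 6 without genistein 20 µM replicate 3 (10.1% of all genes). Where the text gives the settings in which a call was lost, these leave aside a replicate block, whose lost calls stand with the dependence on the processing. With the GC and length trend removed, the PC-3 split became 18 higher and 18 lower, under an adjustment that moved the median of all genes to -0.193.

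**Figure D1:**
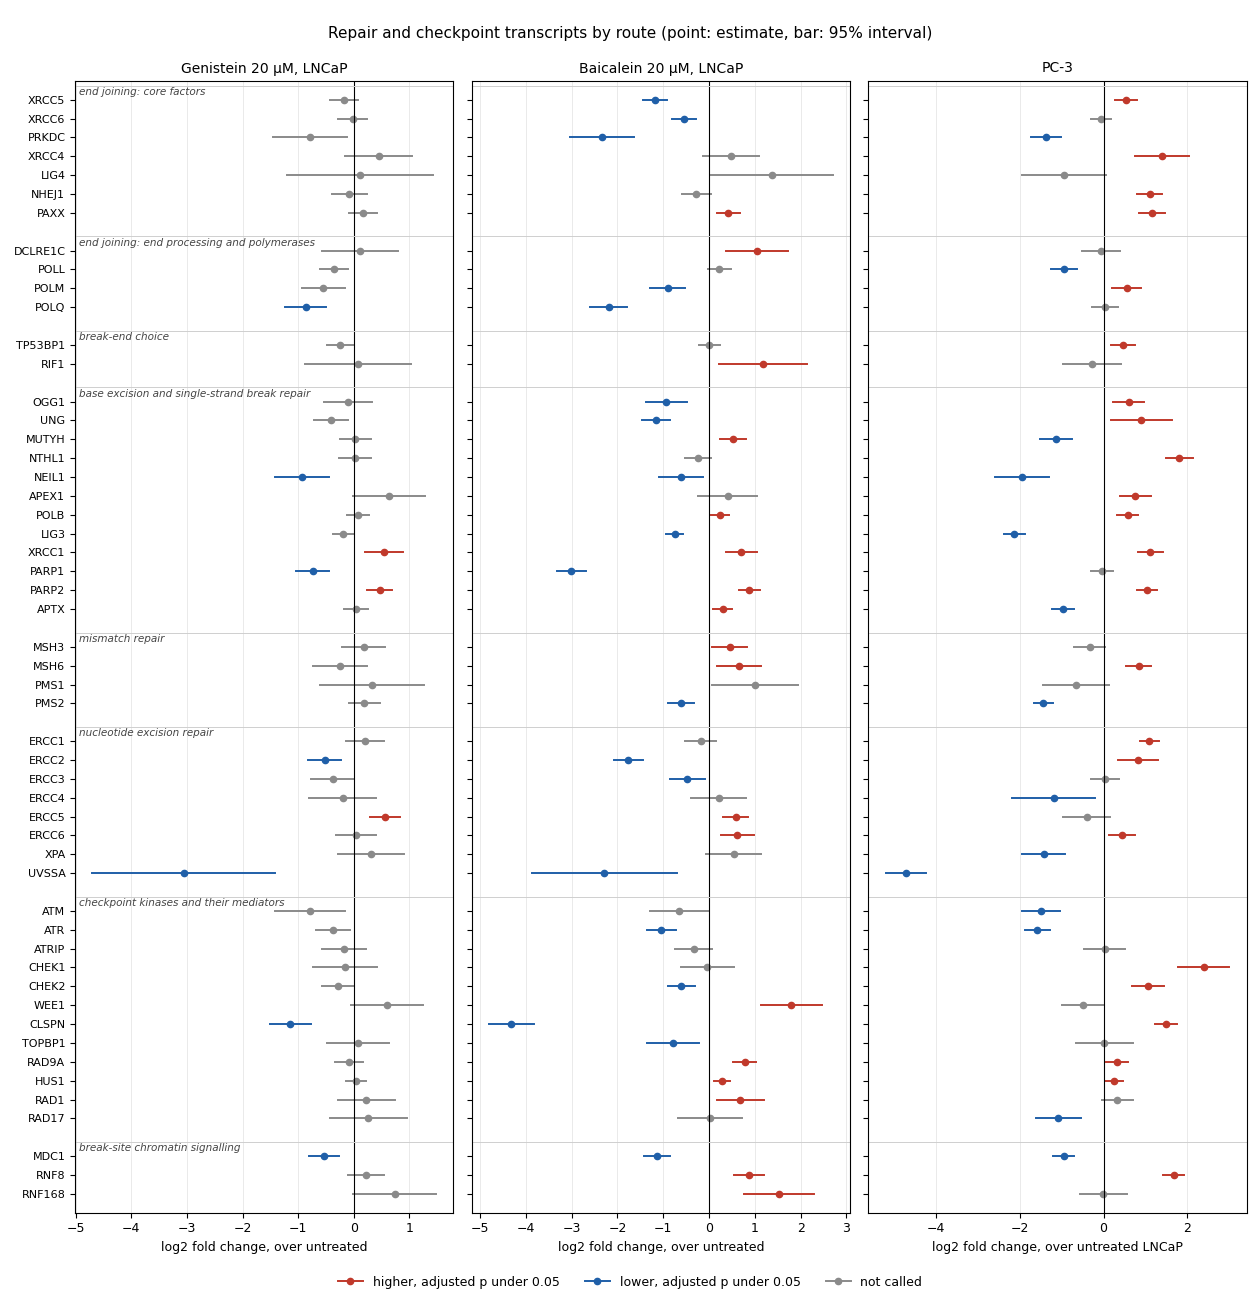
Log2 fold change (x axis) of each of the 52 genes (y axis, by route) with genistein 20 µM and baicalein 20 µM over untreated LNCaP, and in PC-3 over LNCaP; points are edgeR estimates, bars 95% intervals, and colour marks calls at an adjusted p under 0.05. CLSPN and PARP1 lie farthest to the left with baicalein, UVSSA with genistein and in PC-3, and WEE1 farthest to the right with baicalein.

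At 10 µM no member was called with either drug, where 0.112% of all genes were called with genistein and 0.4% with baicalein. At an unadjusted p under 0.05 genistein at 10 µM had 4 members (8.58% of all genes) and baicalein at 10 µM had 4 (11.2% of all genes). DESeq2 called 1 member with each drug (0.766% of all genes with genistein and 2.48% with baicalein), ERCC5 with genistein (log2 fold change 0.49, adjusted p = 0.0365) and LIG3 with baicalein (-0.26, adjusted p = 0.0495). By edgeR the member nearest to a call was ERCC5 with both drugs. This nuclease gene had 23.9, 17.5 and 22.8 CPM in untreated libraries, 30.1, 31.8 and 30.7 CPM with genistein at 10 µM and 32.9, 32.3 and 29.6 CPM with genistein at 20 µM. With baicalein it had 26.3, 32.1 and 30.2 CPM at 10 µM and 30.3, 30.6 and 35.2 CPM at 20 µM. All 12 treated libraries lay above all 3 untreated ones. The same 3 untreated libraries serve every treated group, and ERCC5 was picked as nearest to a call. The separation therefore adds no support beyond the tests. The log2 fold changes at 10 µM were 0.53 ± 0.12 for genistein (adjusted p = 0.219) and 0.46 ± 0.12 for baicalein (adjusted p = 0.165).

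In end joining, baicalein at 20 µM lowered the 3 subunits of the DNA-dependent protein kinase, while the ligase complex did not pass the test. Of the 7 core factors 1 rose and 3 fell with baicalein at 20 µM (57.1% called, against 57.2% of all genes). None passed with genistein at 20 µM, where 16.4% of all genes did. PRKDC encodes the catalytic kinase (ENSG00000253729, chromosome 8, 47773111 to 47960178, minus strand). It had 247, 225 and 277 CPM in untreated libraries, 198, 261 and 241 CPM with baicalein at 10 µM and 30.3, 38.5 and 78.98 CPM with baicalein at 20 µM. Every 20 µM library lay below every other library of that series, and the third was the highest of them. The fall against untreated was 5.07-fold (log2 fold change -2.34 ± 0.32, adjusted p = 5.08e-05). With genistein PRKDC had 266, 197 and 229 CPM at 10 µM and 120.3, 115 and 199.9 CPM at 20 µM. The 3 libraries at 20 µM lay below the 3 untreated ones, and the test was not passed (log2 fold change -0.78, 95% interval -1.46 to -0.11, adjusted p = 0.105). XRCC5, the larger Ku subunit (ENSG00000079246, chromosome 2, 216107464 to 216206303, plus strand), had 154, 136 and 147 CPM with baicalein at 20 µM, against 325, 354 and 313 CPM untreated. The groups did not overlap, and the fall was 2.27-fold (log2 fold change -1.18 ± 0.12, adjusted p = 3.28e-06). XRCC6, its smaller partner (ENSG00000196419, chromosome 22, 41621163 to 41664048, plus strand), had 323, 430.4 and 373 CPM with baicalein at 20 µM, against 509.6, 584 and 558 CPM untreated. It fell 1.47-fold (log2 fold change -0.55 ± 0.12, adjusted p = 0.0015), a smaller change than that of XRCC5. Both stayed uncalled with genistein at 20 µM, at 294 ± 26.8 CPM for XRCC5 (log2 fold change -0.17, 95% interval -0.43 to 0.09, adjusted p = 0.366) and 544 ± 29.99 CPM for XRCC6 (log2 fold change -0.02, 95% interval -0.27 to 0.24, adjusted p = 0.943).

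The remaining core factors moved less or spread more. PAXX, which stabilises the ligation complex on Ku, had 34.97, 39.9 and 37.5 CPM with baicalein at 20 µM, against 27.6, 27.02 and 29.2 CPM untreated. It rose 1.34-fold (log2 fold change 0.42 ± 0.12, adjusted p = 0.00706). LIG4, the ligase that seals the break, had 171, 40.6 and 118 CPM with baicalein at 20 µM, against 38.7, 26.3 and 62.6 CPM untreated. Its second treated library lay among the untreated ones, and LIG4 was not called (log2 fold change 1.37, 95% interval 0.04 to 2.70, adjusted p = 0.0735). XRCC4, the ligase's scaffold, had 15.2, 6.73 and 15.8 CPM with baicalein at 20 µM, against 11.2, 8.37 and 7.35 CPM untreated (log2 fold change 0.48, 95% interval -0.13 to 1.09, adjusted p = 0.164), and again the second treated library lay far below the other 2. NHEJ1, which bridges the ends with XRCC4, was at 8.56 ± 1.64 CPM with baicalein at 20 µM and 10.4 ± 0.96 CPM untreated (log2 fold change -0.28, 95% interval -0.60 to 0.05, adjusted p = 0.13).

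Among end processing factors, POLQ fell with both drugs at 20 µM. This polymerase of microhomology-mediated joining (ENSG00000051341, chromosome 3, 121431431 to 121545988, minus strand) had 16.1, 13.6 and 14.1 CPM in untreated libraries, 10.2, 10.4 and 10.1 CPM with genistein at 10 µM and 7.29, 8.29 and 8.49 CPM with genistein at 20 µM. With baicalein it had 10.7, 15.4 and 14.04 CPM at 10 µM and 3.67, 2.30 and 3.69 CPM at 20 µM. The libraries of both drugs at 20 µM lay below every untreated library. The falls at 20 µM were 1.82-fold (log2 fold change -0.86 ± 0.17, adjusted p = 0.00455) with genistein and 4.56-fold (log2 fold change -2.19 ± 0.19, adjusted p = 6.39e-07) with baicalein, and both calls held in every alternative tried. POLM, a gap-filling polymerase of end joining, had 6.76, 9.28 and 6.12 CPM with baicalein at 20 µM, against 13.1, 15.2 and 13.4 CPM untreated. It fell 1.88-fold (log2 fold change -0.91 ± 0.18, adjusted p = 0.000859). POLM had, with genistein at 20 µM, 9.89, 9.58 and 9.15 CPM, below all untreated libraries but not called (log2 fold change -0.54, 95% interval -0.93 to -0.16, adjusted p = 0.0535). DCLRE1C, the nuclease Artemis that opens hairpin ends, had 32.7, 13.96 and 27.4 CPM with baicalein at 20 µM, against 13.97, 9.72 and 12.2 CPM untreated. Its second treated library lay just inside the untreated range, and it rose 2.06-fold (log2 fold change 1.04 ± 0.31, adjusted p = 0.0126). That call was lost without library 1 of baicalein 20 µM or without library 2 of untreated LNCaP (adjusted p = 0.0578 to 0.0623, within 0.00134 to 0.0623 over all alternatives). The span of DCLRE1C shares 6957 bases with that of SUV39H2 on the opposite strand, which carried about as many counts. POLL, the polymerase lambda gene, was not called against untreated with either drug, at 20.2 ± 0.0227 CPM with genistein at 20 µM, 30.1 ± 4.69 CPM with baicalein at 20 µM and 25.8 ± 2.49 CPM untreated. POLL shares 9389 bases with DPCD on the opposite strand.

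The pair that steers breaks toward end joining by shielding them from resection split. TP53BP1, the chromatin reader of the pair, was at 34.5 ± 0.607 CPM with genistein at 20 µM (log2 fold change -0.24, 95% interval -0.48 to -0.01, adjusted p = 0.15), 41.1 ± 2.84 CPM with baicalein at 20 µM (log2 fold change 0.01, 95% interval -0.23 to 0.24, adjusted p = 0.951) and 40.8 ± 4.61 CPM untreated. RIF1, its effector, had 219.6, 84.97 and 153 CPM with baicalein at 20 µM, against 85.1, 44.7 and 72.2 CPM untreated. One treated library lay inside the untreated range, and RIF1 rose 2.26-fold (log2 fold change 1.18 ± 0.44, adjusted p = 0.0373). The RIF1 call was lost without library 1 or 3 of baicalein 20 µM, without library 2 or 3 of untreated LNCaP or with no filter on low counts (adjusted p = 0.0699 to 0.16, within 0.00201 to 0.16 over all alternatives). TP53BP1 shares 6711 bases with TUBGCP4 on the opposite strand.

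Base excision and single-strand break repair held the second largest fall with baicalein at 20 µM and several rises. With baicalein at 20 µM 5 of its 12 genes rose and 5 fell (83.3% called, against 57.2% of all genes). With genistein at 20 µM 2 rose and 2 fell (33.3% called, against 16.4% of all genes). PARP1 makes most of the poly(ADP-ribose) at strand breaks (ENSG00000143799, chromosome 1, 226360210 to 226408154, minus strand). It had 322, 393 and 369 CPM in untreated libraries, 329, 382 and 400.4 CPM with genistein at 10 µM and 226, 211 and 213 CPM with genistein at 20 µM. With baicalein it had 361, 306 and 317 CPM at 10 µM and 36.1, 50.5 and 48.1 CPM at 20 µM. At 10 µM both drugs left it within or near the untreated range, while at 20 µM no library of either drug reached it. The falls at 20 µM were 1.66-fold (log2 fold change -0.74 ± 0.14, adjusted p = 0.00345) with genistein and 8.05-fold (log2 fold change -3.01 ± 0.15, adjusted p = 7.18e-09) with baicalein. PARP2, the related enzyme, moved the other way, with 31.5, 29.96 and 31.6 CPM with genistein at 20 µM and 37.8, 44.00 and 41.97 CPM with baicalein at 20 µM, against 21.4, 24.4 and 21.6 CPM untreated. It rose 1.38-fold (log2 fold change 0.47 ± 0.11, adjusted p = 0.0101) with genistein and 1.84-fold (log2 fold change 0.88 ± 0.11, adjusted p = 1.36e-05) with baicalein. The genistein call was lost without library 1 of genistein 20 µM or without library 3 of untreated LNCaP (adjusted p = 0.0555 to 0.066, within 0.00254 to 0.066 over all alternatives).

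**Figure D2:**
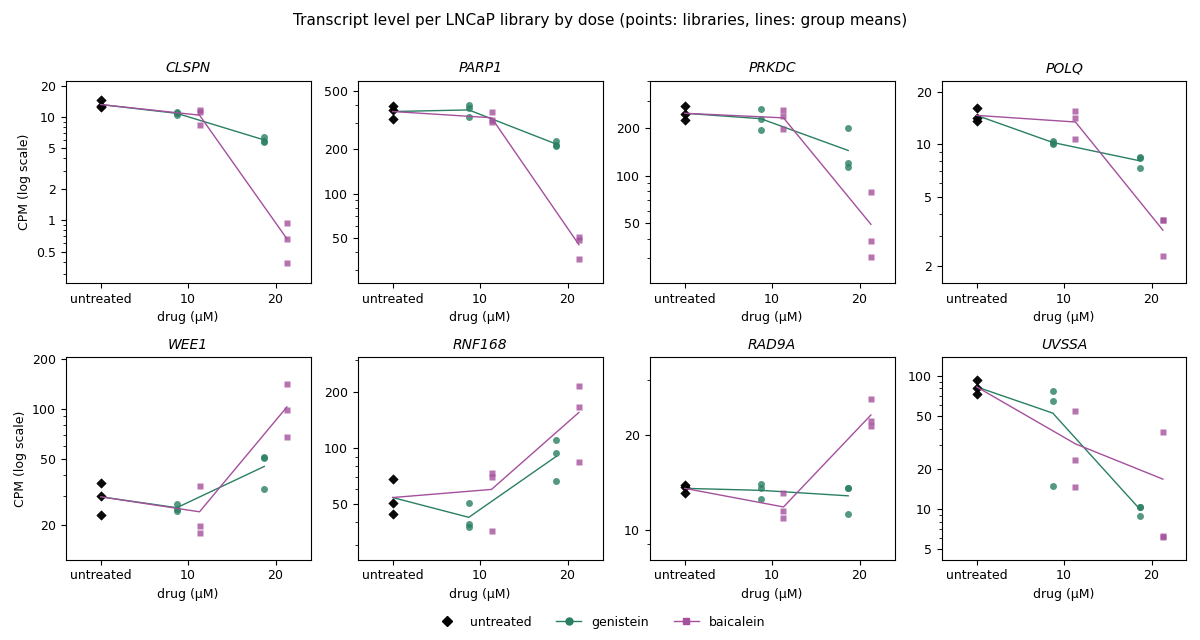
CPM per LNCaP library on a log axis (y) for untreated cells and for 10 and 20 µM of each drug (x); points are libraries and lines join group means. CLSPN, PARP1, PRKDC and POLQ drop at 20 µM of baicalein below all other libraries, WEE1, RNF168 and RAD9A rise there, and UVSSA varies widely between libraries of a group, except untreated cells and genistein at 20 µM.

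XRCC1, the scaffold of single-strand break repair (ENSG00000073050, chromosome 19, 43543311 to 43580473, minus strand), had 16.8, 14.3 and 14.6 CPM with genistein at 20 µM and 14.5, 19.9 and 16.3 CPM with baicalein at 20 µM, against 9.97, 10.9 and 10.2 CPM untreated. Neither treated group overlapped the untreated one. XRCC1 rose 1.46-fold (log2 fold change 0.55 ± 0.16, adjusted p = 0.0313) with genistein and 1.63-fold (log2 fold change 0.71 ± 0.16, adjusted p = 0.00195) with baicalein, and the genistein call was lost without library 1, 2 or 3 of genistein 20 µM, without library 1, 2 or 3 of untreated LNCaP or with no filter on low counts (adjusted p = 0.0583 to 0.143, within 0.00117 to 0.143 over all alternatives). Its ligase LIG3 went down, to 36.9, 41.8 and 40.1 CPM with baicalein at 20 µM, against 65.5, 68.2 and 66.8 CPM untreated. LIG3 fell 1.69-fold (log2 fold change -0.75 ± 0.09, adjusted p = 1.02e-05), and its libraries agreed closely. With genistein at 20 µM LIG3 was at 58.6 ± 3.45 CPM and not called (log2 fold change -0.19 ± 0.09, adjusted p = 0.161). LIG3 shares 3754 bases with RFFL on the opposite strand, which carried about as many counts. POLB, which fills the gap, was at 22.5 ± 1.68 CPM with baicalein at 20 µM and 19.1 ± 1.20 CPM untreated (log2 fold change 0.23 ± 0.09, adjusted p = 0.0435), a call lost without library 1 or 3 of baicalein 20 µM, without library 2 or 3 of untreated LNCaP, with DESeq2 size factors, with no filter on low counts, by the DESeq2 Wald test, with no other group in the fit, without mitochondrially encoded genes or with the GC and length trend removed (adjusted p = 0.0542 to 0.368, within 0.0148 to 0.368 over all alternatives). APTX, which removes failed ligation ends, was at 65.1 ± 4.88 CPM with baicalein at 20 µM and 53.03 ± 5.66 CPM untreated (log2 fold change 0.30 ± 0.10, adjusted p = 0.0217), a call lost without library 2 of baicalein 20 µM, without library 1 or 3 of untreated LNCaP, with no filter on low counts or with no other group in the fit (adjusted p = 0.0636 to 0.168, within 0.00134 to 0.168 over all alternatives). APEX1, which cuts the abasic site, spread widely, with 65.4, 143 and 128 CPM with baicalein at 20 µM, against 76.3, 83.01 and 95.8 CPM untreated, and was not called (log2 fold change 0.40, 95% interval -0.24 to 1.05, adjusted p = 0.266).

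The glycosylases that start base excision did not move together. UNG, which removes uracil (ENSG00000076248, chromosome 12, 109097597 to 109126725, plus strand), had 15.8, 22.7 and 18.03 CPM with baicalein at 20 µM, against 36.1, 46.03 and 44.9 CPM untreated. The groups were well apart, and UNG fell 2.24-fold (log2 fold change -1.16 ± 0.14, adjusted p = 1.58e-05). UNG shares 10139 bases with ACACB on the same strand, which carried fewer counts. OGG1, which removes oxidised guanine, had 5.41, 10.2 and 5.90 CPM with baicalein at 20 µM, against 11.9, 14.8 and 14.5 CPM untreated. It fell 1.91-fold (log2 fold change -0.93 ± 0.21, adjusted p = 0.00189). The OGG1 locus lies over TADA3 and CAMK1 on the opposite strand, 8253 and 12646 shared bases, and both carried more counts. MUTYH, which removes adenine paired with oxidised guanine, was by contrast higher, with 27.1, 30.4 and 25.5 CPM with baicalein at 20 µM, against 18.4, 20.3 and 19.1 CPM untreated (log2 fold change 0.52 ± 0.13, adjusted p = 0.00383). NTHL1, which acts on oxidised pyrimidines, was not called with baicalein at 20 µM (8.58 ± 0.79 CPM, against 10.1 ± 0.593 CPM untreated, log2 fold change -0.24, 95% interval -0.53 to 0.05, adjusted p = 0.146). NEIL1, another glycosylase of oxidised bases and the lowest member per kilobase in LNCaP, had 2.95, 2.38 and 3.75 CPM with genistein at 20 µM and 3.19, 5.01 and 3.06 CPM with baicalein at 20 µM, against 4.57, 6.54 and 6.26 CPM untreated. Its overlap with MAN2C1 on the opposite strand, which carried more counts, spans 1909 bases. It fell 1.91-fold (log2 fold change -0.93 ± 0.23, adjusted p = 0.0145) with genistein, a call lost without library 2 of genistein 20 µM (adjusted p = 0.0674, within 0.00159 to 0.0674 over all alternatives). With baicalein it fell 1.53-fold (log2 fold change -0.61 ± 0.23, adjusted p = 0.0327), one treated library overlapped the untreated range, and the call was lost without library 1 or 3 of baicalein 20 µM, without library 2 or 3 of untreated LNCaP, with no other group in the fit or with the GC and length trend removed (adjusted p = 0.0626 to 0.118, within 0.00543 to 0.118 over all alternatives).

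Mismatch repair had no called member with genistein at 20 µM, where 16.4% of all genes were called. With baicalein at 20 µM 2 of 4 rose and 1 fell (75% called, against 57.2% of all genes). PMS2, a nuclease subunit of mismatch repair (ENSG00000122512, chromosome 7, 5970925 to 6009130, minus strand), had 32.6, 42.5 and 38.8 CPM with baicalein at 20 µM, against 54.5, 61.6 and 57.9 CPM untreated. It fell 1.53-fold (log2 fold change -0.61 ± 0.13, adjusted p = 0.00146). PMS2 has near-identical copies in the genome, so its count is uncertain. MSH6, which recognises single mismatches, had 15.1, 32.5 and 28.05 CPM with baicalein at 20 µM, against 14.1, 16.7 and 17.6 CPM untreated. One treated library stayed within the untreated range, and MSH6 rose 1.57-fold (log2 fold change 0.65 ± 0.22, adjusted p = 0.023), a call lost without library 2 or 3 of baicalein 20 µM, without library 1 or 2 of untreated LNCaP, with no filter on low counts, with no other group in the fit or with the GC and length trend removed (adjusted p = 0.0557 to 0.117, within 0.000221 to 0.117 over all alternatives). MSH6 shares 20748 bases with FBXO11 on the opposite strand, which carried more counts. MSH3, which recognises small loops, had 36.4, 25.3 and 34.3 CPM with baicalein at 20 µM, against 24.6, 22.98 and 22.8 CPM untreated. It rose 1.36-fold (log2 fold change 0.45 ± 0.18, adjusted p = 0.0481), a call lost without library 1 or 3 of baicalein 20 µM, without library 1, 2 or 3 of untreated LNCaP, with no filter on low counts, by the DESeq2 Wald test, with no other group in the fit or without mitochondrially encoded genes (adjusted p = 0.0589 to 0.167, within 0.013 to 0.167 over all alternatives). PMS1, a relative of PMS2, had 147, 48.4 and 95.2 CPM with baicalein at 20 µM, against 60.6, 40.5 and 44.5 CPM untreated, and was not called (log2 fold change 1.00, 95% interval 0.06 to 1.93, adjusted p = 0.0653).

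In nucleotide excision repair 2 of 8 genes rose and 3 fell with baicalein at 20 µM (62.5% called, against 57.2% of all genes). With genistein at 20 µM 1 rose and 2 fell (37.5% called, against 16.4% of all genes). ERCC2, a helicase of the TFIIH complex that opens the lesion (ENSG00000104884, chromosome 19, 45349837 to 45370918, minus strand), had 28.5, 27.4 and 32.1 CPM in untreated libraries, 30.99, 26.3 and 25.98 CPM with baicalein at 10 µM and 6.76, 10.2 and 8.96 CPM with baicalein at 20 µM. The drop came between 10 and 20 µM, and the fall against untreated was 3.39-fold (log2 fold change -1.76 ± 0.14, adjusted p = 4.68e-07). With genistein at 20 µM ERCC2 had 20.2, 20.2 and 20.9 CPM, below all untreated libraries. That fall was 1.43-fold (log2 fold change -0.52 ± 0.14, adjusted p = 0.0213), and the call was lost without library 2 or 3 of genistein 20 µM or without library 3 of untreated LNCaP (adjusted p = 0.0574 to 0.0685, within 0.000257 to 0.0685 over all alternatives). ERCC3, the other TFIIH helicase, had 33.8, 47.1 and 28.8 CPM with baicalein at 20 µM, against 45.6, 59.7 and 47.9 CPM untreated. It fell 1.39-fold (log2 fold change -0.48 ± 0.18, adjusted p = 0.0345) with overlapping groups, a call lost without library 1 or 3 of baicalein 20 µM, without library 2 of untreated LNCaP, with no other group in the fit or with the GC and length trend removed (adjusted p = 0.096 to 0.169, within 0.00283 to 0.169 over all alternatives).

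UVSSA, a scaffold of transcription-coupled repair (ENSG00000163945, chromosome 4, 1345691 to 1395989, plus strand), was the least even member. It had 92.4, 72.99 and 81.2 CPM in untreated libraries, 14.8, 64.8 and 77.3 CPM with genistein at 10 µM and 10.3, 10.4 and 8.89 CPM with genistein at 20 µM. With baicalein it had 23.3, 54.2 and 14.6 CPM at 10 µM and 6.18, 37.7 and 6.22 CPM at 20 µM. All 12 treated libraries lay below the untreated maximum, and those of genistein at 20 µM agreed, while 1 library of genistein at 10 µM, 1 of baicalein at 10 µM and 1 of baicalein at 20 µM stood far from the other 2 of its group. The falls at 20 µM were 8.33-fold (log2 fold change -3.06 ± 0.76, adjusted p = 0.0167) with genistein and 4.88-fold (log2 fold change -2.29 ± 0.73, adjusted p = 0.0172) with baicalein. The genistein call was lost without library 1, 2 or 3 of genistein 20 µM or with no filter on low counts (adjusted p = 0.0517 to 0.0631, within 0.000137 to 0.0631 over all alternatives). The baicalein call was lost without library 1 or 3 of baicalein 20 µM or with no filter on low counts (adjusted p = 0.052 to 0.0624, within 0.000896 to 0.0624 over all alternatives), and without baicalein 20 µM replicate 2 the log2 fold change was -3.72.

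ERCC5, the nuclease that cuts on one side of the lesion (ENSG00000134899, chromosome 13, 102845831 to 102875995, plus strand), rose 1.47-fold (log2 fold change 0.56 ± 0.12, adjusted p = 0.00872) with genistein at 20 µM and 1.49-fold (log2 fold change 0.58 ± 0.12, adjusted p = 0.00137) with baicalein at 20 µM, from the values given with the 10 µM groups. The genistein call was lost without library 1 of genistein 20 µM or without library 2 of untreated LNCaP (adjusted p = 0.0536 to 0.0653, within 0.00232 to 0.0653 over all alternatives). ERCC6, which starts the transcription-coupled branch, had 69.6, 53.4 and 60.6 CPM with baicalein at 20 µM, against 42.8, 40.5 and 36.8 CPM untreated, and rose 1.53-fold (log2 fold change 0.61 ± 0.17, adjusted p = 0.00704). The nuclease subunits ERCC1 and ERCC4 and the damage verifier XPA were not called with either drug at 20 µM. With baicalein at 20 µM their log2 fold changes were -0.19 (95% interval -0.53 to 0.16), 0.21 (-0.39 to 0.81) and 0.54 (-0.06 to 1.14). With genistein at 20 µM they were 0.21 (-0.14 to 0.55), -0.19 (-0.80 to 0.41) and 0.31 (-0.29 to 0.91). ERCC1 shares 3404 bases with POLR1G on the opposite strand, which carried fewer counts, and ERCC2 shares 1684 with KLC3, also opposite and with fewer counts.

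The checkpoint genes held the largest fall and the largest rise of all 52 with baicalein at 20 µM. There 4 of the 12 rose and 4 fell (66.7% called, against 57.2% of all genes). CLSPN encodes claspin, the adaptor through which ATR activates CHEK1 (ENSG00000092853, chromosome 1, 35720218 to 35769978, minus strand). It had 12.5, 14.5 and 12.8 CPM in untreated libraries, 10.5, 11.1 and 11.2 CPM with genistein at 10 µM and 6.51, 5.84 and 5.73 CPM with genistein at 20 µM. With baicalein it had 8.41, 11.2 and 11.8 CPM at 10 µM and 0.386, 0.657 and 0.949 CPM at 20 µM. Every library of either drug at 20 µM lay below every untreated and 10 µM library, and those of baicalein were all under 1 CPM. The falls were 2.20-fold (log2 fold change -1.14 ± 0.17, adjusted p = 0.000929) with genistein and 19.9-fold (log2 fold change -4.31 ± 0.23, adjusted p = 1.23e-08) with baicalein, and both calls held in every alternative tried. WEE1, the kinase that blocks entry into mitosis (ENSG00000166483, chromosome 11, 9573670 to 9593457, plus strand), had 35.8, 29.8 and 22.98 CPM in untreated libraries, 17.8, 19.7 and 34.4 CPM with baicalein at 10 µM and 142, 67.2 and 98.7 CPM with baicalein at 20 µM. All 3 libraries at 20 µM exceeded every untreated one, though they spread widely, and WEE1 rose 3.48-fold (log2 fold change 1.80 ± 0.31, adjusted p = 0.000261). With genistein at 20 µM WEE1 had 50.8, 32.7 and 51.3 CPM, overlapping the untreated range and not called (log2 fold change 0.61, 95% interval -0.04 to 1.25, adjusted p = 0.194).

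ATR, the kinase of stalled forks (ENSG00000175054, chromosome 3, 142449007 to 142578733, minus strand), had 20.00, 17.2 and 25.8 CPM with baicalein at 20 µM, against 45.3, 42.5 and 42.1 CPM untreated. It fell 2.06-fold (log2 fold change -1.04 ± 0.15, adjusted p = 5.21e-05). Its partner ATRIP was not called (13.2 ± 2.15 CPM with baicalein at 20 µM, 16.7 ± 3.16 CPM untreated, log2 fold change -0.34, 95% interval -0.74 to 0.06, adjusted p = 0.131). TOPBP1, which activates ATR, had 20.1, 21.9 and 22.1 CPM with baicalein at 20 µM, against 52.3, 30.5 and 28.7 CPM untreated. The treated libraries agreed while the untreated ones did not, and TOPBP1 fell 1.74-fold (log2 fold change -0.80 ± 0.26, adjusted p = 0.0195), a call lost without library 1 of baicalein 20 µM or without library 1 of untreated LNCaP (adjusted p = 0.0575 to 0.111, within 0.008 to 0.111 over all alternatives). ATM, the kinase of double-strand breaks, had 55.7, 43.3 and 26.8 CPM with genistein at 20 µM and 63.2, 32.1 and 42.8 CPM with baicalein at 20 µM, against 85.4, 60.8 and 71.6 CPM untreated. It was called with neither (log2 fold change -0.79, 95% interval -1.42 to -0.16, adjusted p = 0.083 for genistein, log2 fold change -0.66, 95% interval -1.29 to -0.03, adjusted p = 0.07 for baicalein). Of the downstream kinases, CHEK2 fell to 7.91 ± 0.178 CPM with baicalein at 20 µM, against 12.04 ± 1.16 CPM untreated (log2 fold change -0.60 ± 0.14, adjusted p = 0.00205). CHEK1 had 20.6, 21.6 and 13.7 CPM with baicalein at 20 µM, against 25.3, 13.4 and 18.8 CPM untreated, fully overlapping and not called (log2 fold change -0.04, 95% interval -0.62 to 0.54, adjusted p = 0.908). Claspin's transcript thus fell where that of its client kinase did not pass the test.

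The ring-shaped clamp that marks damaged DNA for ATR is built from RAD9A, HUS1 and RAD1 and loaded by RAD17. With baicalein at 20 µM all 3 clamp subunits were called higher, as were 29.4% of all genes, and the loader was not called. RAD9A (ENSG00000172613, chromosome 11, 67317871 to 67398410, plus strand) had 22.1, 26.02 and 21.3 CPM with baicalein at 20 µM, against 13.1, 13.9 and 13.7 CPM untreated, and rose 1.71-fold (log2 fold change 0.77 ± 0.12, adjusted p = 9.81e-05). RAD9A shares 6201 bases with POLD4, which carried more counts, and 10010 with CLCF1, both on the opposite strand. HUS1 was at 48.2 ± 1.98 CPM with baicalein at 20 µM and 39.7 ± 2.09 CPM untreated (log2 fold change 0.28 ± 0.08, adjusted p = 0.0116), a call lost without library 1 or 3 of untreated LNCaP, with no filter on low counts or with the GC and length trend removed (adjusted p = 0.0508 to 0.169, within 0.0116 to 0.169 over all alternatives). RAD1 had 118, 54.5 and 67.6 CPM with baicalein at 20 µM, against 59.6, 46.6 and 43.1 CPM untreated, with 1 treated library far above the rest. It rose 1.60-fold (log2 fold change 0.68 ± 0.24, adjusted p = 0.0255), a call lost without library 1 of baicalein 20 µM, without library 2 or 3 of untreated LNCaP, with no filter on low counts or with no other group in the fit (adjusted p = 0.0689 to 0.171, within 0.00396 to 0.171 over all alternatives). RAD1 shares 3313 bases with BRIX1 on the opposite strand, which carried about as many counts. RAD17 was at 98.8 ± 27.1 CPM with baicalein at 20 µM and 97.2 ± 19.96 CPM untreated (log2 fold change 0.02, 95% interval -0.67 to 0.72, adjusted p = 0.958). Genistein at 20 µM called CLSPN alone among the 12 checkpoint genes (16.4% of all genes), while DESeq2 called 3 (16.6% of all genes).

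At the break, MDC1 binds phosphorylated histone and RNF8 and then RNF168 build the ubiquitin marks that TP53BP1 reads. With baicalein at 20 µM the first fell and the ubiquitin ligases rose. MDC1 (ENSG00000137337, chromosome 6, 30699807 to 30717447, minus strand) had 37.4, 34.7 and 33.9 CPM with genistein at 20 µM and 21.5, 26.8 and 20.98 CPM with baicalein at 20 µM, against 47.8, 55.4 and 50.4 CPM untreated. No treated library reached the untreated range. The falls were 1.45-fold (log2 fold change -0.53 ± 0.13, adjusted p = 0.0137) with genistein and 2.21-fold (log2 fold change -1.15 ± 0.13, adjusted p = 8.27e-06) with baicalein, and the genistein call was lost without library 2 or 3 of genistein 20 µM (adjusted p = 0.0511 to 0.0544, within 0.000211 to 0.0544 over all alternatives). RNF168 (ENSG00000163961, chromosome 3, 196468783 to 196503768, minus strand) had 217, 84.1 and 166 CPM with baicalein at 20 µM, against 67.7, 44.3 and 50.3 CPM untreated. It rose 2.88-fold (log2 fold change 1.52 ± 0.35, adjusted p = 0.00243), with the second library well under the other 2. RNF8 had 16.9, 21.5 and 17.1 CPM with baicalein at 20 µM, against 9.61, 10.3 and 10.6 CPM untreated, and rose 1.82-fold (log2 fold change 0.86 ± 0.15, adjusted p = 0.000315). Neither ligase was called with genistein at 20 µM, at 90.2 ± 22.3 CPM for RNF168 (log2 fold change 0.74, 95% interval -0.01 to 1.49, adjusted p = 0.171) and 11.9 ± 1.42 CPM for RNF8 (log2 fold change 0.22, 95% interval -0.11 to 0.55, adjusted p = 0.361).

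Baicalein belongs to the flavones and genistein to the isoflavones, in which the phenyl ring joins the core at another place. The drugs were compared at matched dose and time in 2 pairs, with p-values adjusted over all genes in each. At 10 µM no member was called, where 0.00589% of all genes did, 4 members had an unadjusted p under 0.05 (7.72% of all genes) and DESeq2 called 0 (0.573% of all genes). At that dose 43 of the 52 had a 95% interval that stayed within 2-fold either way. The widest gap at 10 µM was that of RIF1 (log2 difference -1.09, 95% interval -2.06 to -0.12, adjusted p = 0.638), from 35.04, 43.6 and 32.9 CPM with genistein and 33.6, 86.2 and 118 CPM with baicalein, where 1 baicalein library matched the genistein ones. At 20 µM 14 members were higher and 10 lower with genistein than with baicalein, 46.2% of the 52, against 48.7% of all genes (25.4% higher, 23.3% lower).

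**Figure D3:**
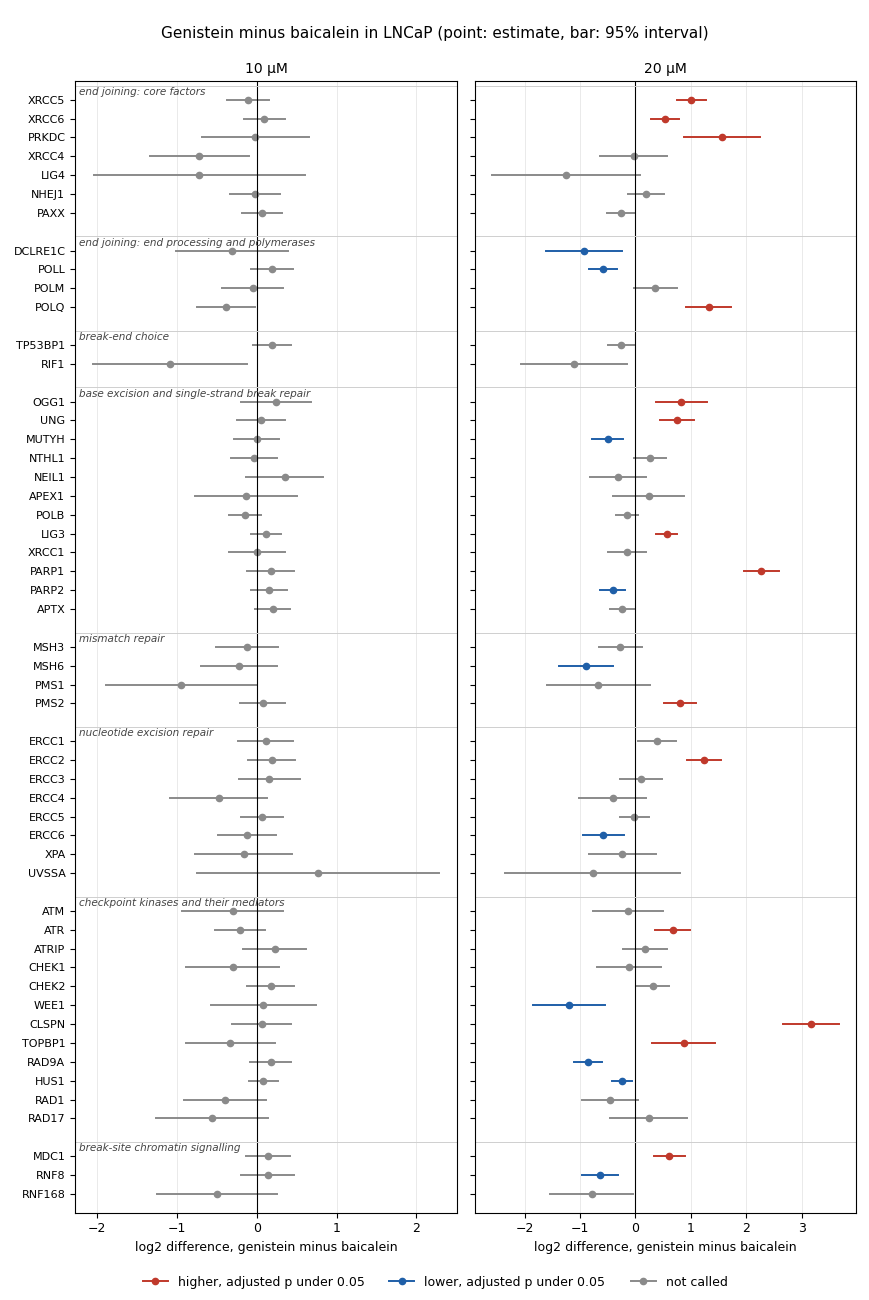
Log2 difference of genistein minus baicalein (x axis) in LNCaP at 10 and 20 µM for each of the 52 genes (y axis, by route); points are edgeR estimates, bars 95% intervals, and colour marks calls at an adjusted p under 0.05. No gene is called at 10 µM, and 24 are called at 20 µM, with CLSPN and PARP1 farthest to the right.

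Of the 14 genes higher with genistein than with baicalein at 20 µM, CLSPN and PARP1 differed most. CLSPN was at 6.03 ± 0.421 CPM with genistein and 0.664 ± 0.281 CPM with baicalein, 9.03-fold apart (log2 difference 3.18 ± 0.23, adjusted p = 3.9e-07). PARP1 was at 217 ± 8.11 CPM with genistein and 44.9 ± 7.69 CPM with baicalein, 4.83-fold apart (2.27 ± 0.14, adjusted p = 1.31e-07). With genistein at 20 µM XRCC5 had 263, 314 and 304 CPM and XRCC6 573, 546 and 513 CPM, all above the baicalein libraries given above. PRKDC was at 145 ± 47.7 CPM with genistein and 49.3 ± 26.05 CPM with baicalein (1.56 ± 0.32, adjusted p = 0.00138). In the same direction the log2 difference was 1.33 ± 0.19 for POLQ (adjusted p = 7.69e-05), 1.24 ± 0.14 for ERCC2 (adjusted p = 1.61e-05) and 1.01 ± 0.12 for XRCC5 (adjusted p = 2.07e-05). The call of TOPBP1, which had 38.6, 50.5 and 28.2 CPM with genistein and 20.1, 21.9 and 22.1 CPM with baicalein (0.87 ± 0.26, adjusted p = 0.0151), was lost without library 2 of genistein 20 µM (adjusted p = 0.0718, within 0.0066 to 0.0718 over all alternatives). UNG had 32.7, 32.8 and 30.03 CPM with genistein and 15.8, 22.7 and 18.03 CPM with baicalein. OGG1 had 12.4, 13.2 and 12.8 CPM with genistein and 5.41, 10.2 and 5.90 CPM with baicalein. PMS2 had 75.4, 63.4 and 60.2 CPM with genistein and 32.6, 42.5 and 38.8 CPM with baicalein, and in none of these 3 genes did the drugs overlap. The remaining 7 were OGG1, UNG, PMS2, ATR, MDC1, LIG3 and XRCC6, with log2 differences from 0.54 for XRCC6 (adjusted p = 0.00243) to 0.83 for OGG1 (adjusted p = 0.0052).

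Among those lower with genistein at 20 µM, WEE1 had 50.8, 32.7 and 51.3 CPM with genistein and 142, 67.2 and 98.7 CPM with baicalein (-1.19 ± 0.30, adjusted p = 0.00551). MSH6 had 13.8, 14.1 and 12.9 CPM with genistein and 15.1, 32.5 and 28.05 CPM with baicalein (-0.89 ± 0.22, adjusted p = 0.00502), and the groups did not overlap. RAD9A was at 12.8 ± 1.35 CPM with genistein and 23.1 ± 2.52 CPM with baicalein (-0.85 ± 0.12, adjusted p = 6.96e-05). RNF8 had 11.8, 13.3 and 10.5 CPM with genistein and 16.9, 21.5 and 17.1 CPM with baicalein (-0.64 ± 0.15, adjusted p = 0.00348). POLL, uncalled with either drug against untreated, differed between them, with 20.1, 20.2 and 20.2 CPM with genistein and 27.5, 35.5 and 27.3 CPM with baicalein (-0.58 ± 0.12, adjusted p = 0.0014). MUTYH and PARP2 were lower with genistein as well, with log2 differences of -0.50 (adjusted p = 0.00656) and -0.41 (adjusted p = 0.00579). The last 3 calls were less firm. DCLRE1C had 10.6, 13.04 and 15.1 CPM with genistein and 32.7, 13.96 and 27.4 CPM with baicalein (-0.93 ± 0.31, adjusted p = 0.027), a call lost without library 1 or 2 of genistein 20 µM, without library 1 or 3 of baicalein 20 µM, with no filter on low counts or with no other group in the fit (adjusted p = 0.0547 to 0.119, within 0.00264 to 0.119 over all alternatives). ERCC6, with 32.4, 41.5 and 49.2 CPM with genistein and 69.6, 53.4 and 60.6 CPM with baicalein (-0.58 ± 0.17, adjusted p = 0.0121) was lost without library 1 of baicalein 20 µM (adjusted p = 0.0501, within 0.0019 to 0.0501 over all alternatives). HUS1 (-0.25 ± 0.08, adjusted p = 0.027) was lost without library 2 or 3 of genistein 20 µM, without library 2 or 3 of baicalein 20 µM, with no filter on low counts, with no other group in the fit or with the GC and length trend removed (adjusted p = 0.0589 to 0.204, within 0.0124 to 0.204 over all alternatives).

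At 20 µM 32 of the 52 had an interval within 2-fold either way. The estimates of the drugs were closest at that dose for ERCC5 (log2 difference -0.02, 95% interval -0.29 to 0.25, adjusted p = 0.908), XRCC4 (log2 difference -0.03, 95% interval -0.64 to 0.58, adjusted p = 0.938) and ERCC3 (log2 difference 0.10, 95% interval -0.28 to 0.49, adjusted p = 0.664). Their intervals include 0, and that of XRCC4 also leaves room for a difference larger than several of those called above.

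The step between the doses was uneven between the drugs. From 10 to 20 µM, baicalein called 13 members higher and 18 lower (54.4% of all genes in either direction, 26.8% higher and 27.5% lower), and genistein called 0 higher and 5 lower (13.2% of all genes, 5.59% higher and 7.63% lower). The 5 were CLSPN, PARP1, ERCC2, NEIL1 and CHEK2, with log2 fold changes of -0.86 ± 0.17 for CLSPN, -0.77 ± 0.14 for PARP1, -0.63 ± 0.14 for ERCC2, -1.07 ± 0.23 for NEIL1 and -0.50 ± 0.13 for CHEK2. The CHEK2 call (adjusted p = 0.0266) was lost without library 1, 2 or 3 of genistein 10 µM, without library 2 or 3 of genistein 20 µM or with no filter on low counts (adjusted p = 0.0656 to 0.121, within 0.00694 to 0.121 over all alternatives). With the GC and length trend removed the genistein split became 2 higher and 7 lower (20.4% of all genes), with DESeq2 1 higher and 8 lower (15.8% of all genes), without mitochondrially encoded genes 0 higher and 8 lower (14.2% of all genes), and with no other group in the fit 5 higher and 11 lower (18.9% of all genes). The genistein step minus the baicalein step, an interaction term, was called for 18 members (11 positive and 7 negative, against 32.8% of all genes, 17.3% positive and 15.5% negative), and their values stand among the results for a closer look.

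In PC-3 the repair routes stood at other levels than in LNCaP, in both directions within each route but that of break-end choice, which had 1 called gene. Of all genes tested 37% were called higher and 37.9% lower, so a difference between the lines is not particular to repair genes. Among core end joining factors 4 were higher and 1 lower in PC-3. XRCC4 had 28.6, 24.9 and 15.3 CPM in PC-3, against 10.8, 8.18 and 7.16 CPM in LNCaP, and was 2.63-fold higher (log2 fold change 1.39 ± 0.27, adjusted p = 0.00267). PAXX had 52.3, 59.8 and 69.7 CPM in PC-3, against 26.7, 26.4 and 28.5 CPM in LNCaP, 2.23-fold higher (log2 fold change 1.16 ± 0.13, adjusted p = 0.000153). NHEJ1 was at 21.6 ± 1.16 CPM in PC-3 and 10.1 ± 0.973 CPM in LNCaP (log2 fold change 1.10 ± 0.12, adjusted p = 0.000166), and XRCC5 at 467 ± 46.3 CPM in PC-3 and 322 ± 21.6 CPM in LNCaP (log2 fold change 0.54 ± 0.11, adjusted p = 0.00358). PRKDC went against them, with 105, 99.996 and 76.7 CPM in PC-3, against 238, 219.9 and 270.1 CPM in LNCaP. It was 2.58-fold lower (log2 fold change -1.37 ± 0.15, adjusted p = 0.000167). XRCC6 (log2 fold change -0.06, 95% interval -0.30 to 0.18, adjusted p = 0.609) and LIG4 (log2 fold change -0.94, 95% interval -1.93 to 0.05, adjusted p = 0.0758) were not called.

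POLL, with 13.5, 13.8 and 11.8 CPM in PC-3, against 23.97, 28.02 and 23.4 CPM in LNCaP, was 1.92-fold lower (log2 fold change -0.94 ± 0.13, adjusted p = 0.000421). POLM was the reverse, with 23.2, 17.6 and 18.9 CPM in PC-3, against 12.6, 14.9 and 13.1 CPM in LNCaP. It was 1.47-fold higher (log2 fold change 0.55 ± 0.15, adjusted p = 0.0109), a call lost with the GC and length trend removed (adjusted p = 0.238, within 0.00746 to 0.238 over all alternatives). POLQ (log2 fold change 0.03, 95% interval -0.29 to 0.34, adjusted p = 0.859) and DCLRE1C (log2 fold change -0.06, 95% interval -0.51 to 0.39, adjusted p = 0.78) were not called. TP53BP1 had 54.9, 50.04 and 59.2 CPM in PC-3, against 34.9, 44.3 and 39.9 CPM in LNCaP, 1.38-fold higher (log2 fold change 0.46 ± 0.12, adjusted p = 0.0119), and RIF1 was not called (log2 fold change -0.28, 95% interval -0.98 to 0.42, adjusted p = 0.416).

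Base excision had 7 genes higher and 4 lower in PC-3 of 12, where 37% of all genes were called higher and 37.9% lower. LIG3 showed the largest difference of the route, with 14.7, 16.1 and 13.8 CPM in PC-3, against 63.2, 66.7 and 65.00 CPM in LNCaP. It was 4.36-fold lower (log2 fold change -2.12 ± 0.10, adjusted p = 3.56e-06), while XRCC1, which holds it, was at 21.8 ± 2.32 CPM in PC-3 and 10.1 ± 0.546 CPM in LNCaP and higher (log2 fold change 1.11 ± 0.13, adjusted p = 0.000179). NEIL1 had 1.02, 1.52 and 1.84 CPM in PC-3, against 4.41, 6.39 and 6.10 CPM in LNCaP, 3.82-fold lower (log2 fold change -1.93 ± 0.27, adjusted p = 0.000511). NTHL1, whose substrates overlap with those of NEIL1, had 29.3, 38.4 and 35.00 CPM in PC-3, against 10.4, 9.56 and 9.51 CPM in LNCaP, 3.48-fold higher (log2 fold change 1.80 ± 0.14, adjusted p = 2.42e-05). The other genes lower in PC-3 were MUTYH (log2 fold change -1.13 ± 0.16, adjusted p = 0.000564) and APTX (log2 fold change -0.96 ± 0.11, adjusted p = 0.000207). The others higher were PARP2 (log2 fold change 1.03 ± 0.10, adjusted p = 9.89e-05), APEX1 (log2 fold change 0.76 ± 0.15, adjusted p = 0.00307), OGG1 (log2 fold change 0.60 ± 0.15, adjusted p = 0.00947), POLB (log2 fold change 0.58 ± 0.11, adjusted p = 0.00187) and UNG (log2 fold change 0.90 ± 0.30, adjusted p = 0.03). Of these, POLB was lost with the GC and length trend removed (adjusted p = 0.191, within 0.000608 to 0.191 over all alternatives). UNG had 91.04, 43.4 and 96.4 CPM in PC-3, where the second library lay within the range of LNCaP, and its call was lost without library 1 or 3 of PC-3, without library 1, 2 or 3 of untreated LNCaP or with the GC and length trend removed (adjusted p = 0.0586 to 0.0926, within 0.000687 to 0.0926 over all alternatives). PARP1 was at 344 ± 14.6 CPM in PC-3 and 351 ± 37.6 CPM in LNCaP and not called (log2 fold change -0.03, 95% interval -0.30 to 0.23, adjusted p = 0.803).

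**Figure D4:**
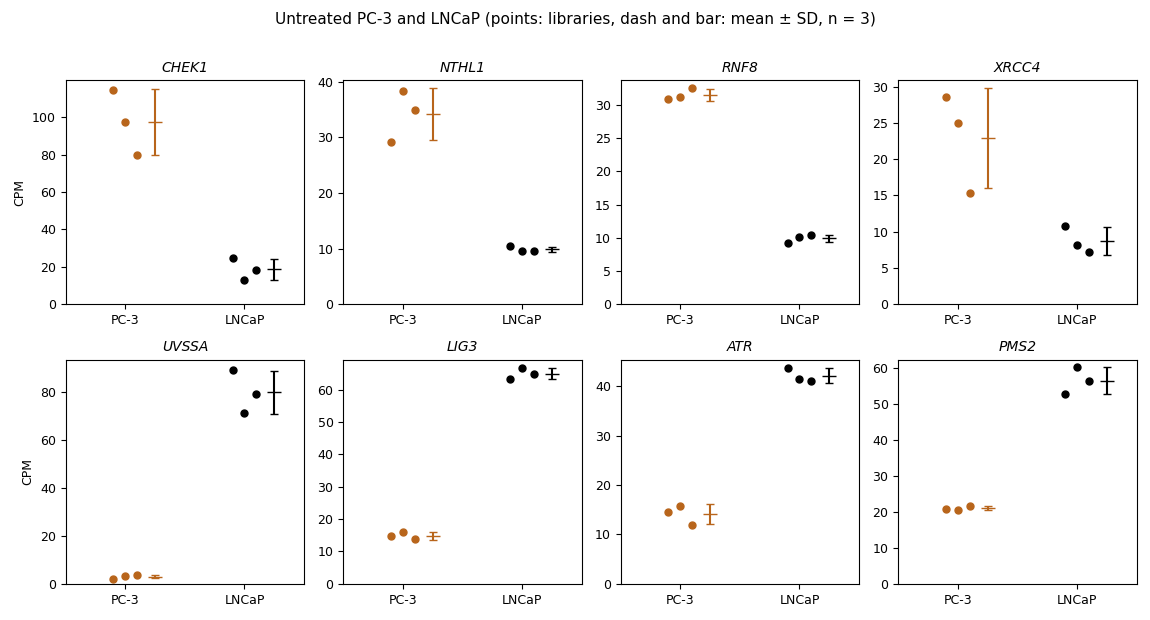
CPM (y axis, linear from 0) in the 3 libraries of untreated PC-3 and of untreated LNCaP (x axis) for 8 of the genes; points are libraries, dashes means and bars SD. CHEK1, NTHL1, RNF8 and XRCC4 lie higher in PC-3, and UVSSA, LIG3, ATR and PMS2 lower, with no overlap between the lines in any panel.

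In mismatch repair PMS2 had 20.6, 20.5 and 21.6 CPM in PC-3, against 52.6, 60.2 and 56.4 CPM in LNCaP, 2.70-fold lower (log2 fold change -1.43 ± 0.10, adjusted p = 1.57e-05), and MSH6 had 25.96, 28.96 and 28.9 CPM in PC-3, against 13.6, 16.3 and 17.1 CPM in LNCaP, 1.78-fold higher (log2 fold change 0.84 ± 0.13, adjusted p = 0.000764). MSH3 and PMS1 were not called, with log2 fold changes of -0.33 (95% interval -0.70 to 0.05) and -0.65 (-1.44 to 0.13). In nucleotide excision repair UVSSA stood apart, with 2.15, 3.26 and 3.68 CPM in PC-3, against 89.3, 71.3 and 79.1 CPM in LNCaP. It was 26.1-fold lower (log2 fold change -4.71 ± 0.21, adjusted p = 2.29e-06), the largest difference of all 52 between the lines. XPA had 8.73, 8.34 and 5.31 CPM in PC-3, against 22.6, 16.8 and 20.8 CPM in LNCaP, 2.68-fold lower (log2 fold change -1.42 ± 0.22, adjusted p = 0.000778). ERCC4 had 15.99, 14.9 and 4.66 CPM in PC-3, against 32.2, 24.3 and 24.7 CPM in LNCaP, with 1 PC-3 library far below the other 2. It was 2.27-fold lower (log2 fold change -1.19 ± 0.41, adjusted p = 0.0349), a call lost without library 1, 2 or 3 of untreated LNCaP or with no filter on low counts (adjusted p = 0.0575 to 0.0917, within 0.00706 to 0.0917 over all alternatives), while ERCC1, its partner, was higher (log2 fold change 1.09 ± 0.10, adjusted p = 5.28e-05). ERCC2 was higher too (log2 fold change 0.82 ± 0.20, adjusted p = 0.00743), as was ERCC6 (log2 fold change 0.44 ± 0.13, adjusted p = 0.0165), whose call was lost without library 3 of untreated LNCaP or with no filter on low counts (adjusted p = 0.0662 to 0.0692, within 0.000426 to 0.0692 over all alternatives). ERCC3 (log2 fold change 0.04, 95% interval -0.30 to 0.38, adjusted p = 0.826) and ERCC5 (log2 fold change -0.40, 95% interval -0.96 to 0.15, adjusted p = 0.156) were not called.

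Among checkpoint genes ATR and ATM were lower in PC-3, and CHEK1 and CHEK2, the kinases they activate, were higher. ATR had 14.6, 15.8 and 11.9 CPM in PC-3, against 43.8, 41.5 and 41.00 CPM in LNCaP, 2.98-fold lower (log2 fold change -1.57 ± 0.13, adjusted p = 3.53e-05). ATM had 30.8, 23.5 and 20.7 CPM in PC-3, against 82.4, 59.4 and 69.7 CPM in LNCaP, 2.82-fold lower (log2 fold change -1.50 ± 0.19, adjusted p = 0.000315). CHEK1, the effector of ATR, had 115, 97.6 and 79.9 CPM in PC-3, against 24.5, 13.1 and 18.3 CPM in LNCaP, 5.22-fold higher (log2 fold change 2.39 ± 0.26, adjusted p = 0.000156). CHEK2, the effector of ATM, was at 24.5 ± 3.97 CPM in PC-3 and 11.7 ± 1.20 CPM in LNCaP (log2 fold change 1.06 ± 0.16, adjusted p = 0.000681), and CLSPN at 35.99 ± 1.11 CPM in PC-3 and 12.9 ± 1.16 CPM in LNCaP (log2 fold change 1.48 ± 0.11, adjusted p = 2.24e-05). RAD17 was lower (log2 fold change -1.08 ± 0.22, adjusted p = 0.00381). RAD9A (log2 fold change 0.31 ± 0.11, adjusted p = 0.0353) and HUS1 (log2 fold change 0.26 ± 0.09, adjusted p = 0.0372) were called higher by small margins. The RAD9A call was lost without library 1 of PC-3, without library 1, 2 or 3 of untreated LNCaP, with no filter on low counts, by the DESeq2 Wald test or with the GC and length trend removed (adjusted p = 0.05 to 0.727, within 0.0289 to 0.727 over all alternatives), the HUS1 call was lost without library 2 or 3 of PC-3, without library 1 or 3 of untreated LNCaP, with no filter on low counts, by the DESeq2 Wald test or with the GC and length trend removed (adjusted p = 0.0574 to 0.35, within 0.0292 to 0.35 over all alternatives), and both estimates changed sign with the GC and length trend removed, to -0.04 for RAD9A and -0.14 for HUS1. WEE1 (log2 fold change -0.50, 95% interval -0.99 to -0.01, adjusted p = 0.0598), TOPBP1 (log2 fold change 0.02, 95% interval -0.67 to 0.70, adjusted p = 0.96), ATRIP (log2 fold change 0.03, 95% interval -0.46 to 0.51, adjusted p = 0.917) and RAD1 (log2 fold change 0.33, 95% interval -0.04 to 0.70, adjusted p = 0.0948) were not called. In chromatin signalling RNF8 had 30.95, 31.2 and 32.6 CPM in PC-3, against 9.28, 10.1 and 10.3 CPM in LNCaP, 3.19-fold higher (log2 fold change 1.67 ± 0.10, adjusted p = 1.05e-05). MDC1 had 25.5, 24.5 and 27.4 CPM in PC-3, against 46.2, 54.1 and 49.1 CPM in LNCaP, 1.93-fold lower (log2 fold change -0.95 ± 0.11, adjusted p = 0.000161), and RNF168 was not called (log2 fold change 0.00 ± 0.24, adjusted p = 0.988).

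Other measures moved with these groups. The summed level of 20 proliferation genes lay between 302 and 310 CPM with baicalein at 20 µM and between 562 and 571 CPM with genistein at 20 µM, against 761 to 796 CPM untreated. In PC-3 that sum was 1660 to 1720 CPM, against 741 to 778 CPM in LNCaP. All 20 fell with baicalein at 20 µM, 7 fell with genistein at 20 µM, and 18 were higher in PC-3. Mitochondrially encoded genes took 10.5, 14.5 and 12.4% of the counts with baicalein at 20 µM and 4.15 to 6.35% in the other 15 libraries. The part of either measure in the repair results was not tested. Without mitochondrially encoded genes the counts of members called at 20 µM against untreated and between the drugs stayed within 1.5 times those given. The count for the genistein step from 10 to 20 µM went from 5 to 8. As a check of the lines, the sum of 8 luminal markers of LNCaP was 357 to 382 CPM in PC-3, against 3903 to 4266 CPM in LNCaP, and that of 8 PC-3 markers 3811 to 4131 CPM in PC-3, against 7.72 to 8.78 CPM in LNCaP. The luminal sum was 2677 to 2722 CPM with genistein at 20 µM, with 7 of 8 markers called lower, and 666 to 797 CPM with baicalein at 20 µM, with all 8 called lower, against 4041 to 4381 CPM untreated. The PC-3 marker sum was 17.3 to 19.9 CPM with genistein at 20 µM and 30.2 to 33.6 CPM with baicalein at 20 µM, against 7.996 to 9.02 CPM untreated, where only 3 of those 8 genes passed the filter.

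A further 52 genes of the same routes, outside the described set, were followed by counts alone. With baicalein at 20 µM 14 were called higher and 26 lower (29.4% and 27.8% of all genes), with a median log2 fold change of -0.38. The described set had 18 higher and 19 lower there, with a median of 0.016. Its near-even split thus did not hold for this further list. With genistein at 20 µM the numbers were 4 and 6 (median 0.03), against 8.31% and 8.12% of all genes. In PC-3 against LNCaP they were 28 and 11 (median 0.53), against 37% and 37.9% of all genes. At 10 µM no gene of that list was called with either drug, where 0.112% of all genes were called with genistein and 0.4% with baicalein.

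Several rises with baicalein rested on genes whose libraries did not agree. The SD of log2 CPM within LNCaP groups, pooled over the 5 groups with 0.5 added to each CPM value, ran from 0.068 for HUS1 to 0.97 for UVSSA. It was 0.34 at the median for the 25 members with under 45% GC in their longest annotated transcript and 0.16 for the 27 members with 45% or more. The 2 measures had a Pearson correlation of -0.42 and a Spearman correlation of -0.50 over the 52 members, and of -0.26 and -0.31 over 16136 genes, given as a description, since all genes share the same libraries. Within the baicalein 20 µM group, LIG4, RIF1, PMS1, WEE1 and RNF168, all with under 45% GC, were each highest in replicate 1 and lowest in replicate 2. The same order held for DCLRE1C, MSH3, RAD1, ERCC6 and ATM, also with under 45% GC. Over all genes, these 2 replicates had the highest chi-square of any replicate pair, 97.59 per degree of freedom. Not all members with under 45% GC had that order. MSH6 was lowest in replicate 1 and highest in replicate 2, and CHEK1 was highest in replicate 2 and lowest in replicate 3. With the GC and length trend removed, WEE1 and RNF168 kept their calls with baicalein at 20 µM. POLB, MSH6 and HUS1, also called higher there and with under 45% GC, lost theirs. The part of base composition was not tested further.

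**Figure D5:**
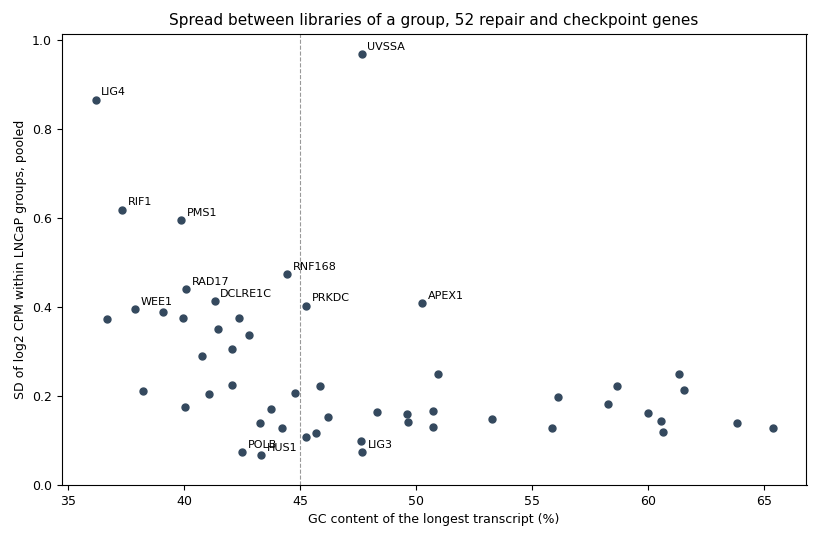
Pooled SD of log2 CPM within the LNCaP groups (y axis) against the GC content of the longest transcript in percent (x axis) for the 52 genes; each point is a gene, and the dashed line marks 45%. LIG4, RIF1 and PMS1 combine low GC content with wide spread, UVSSA stands apart at the top, and HUS1, POLB and LIG3 have the smallest spread.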

How the data were processed

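The table analysed holds whole read counts per gene and library, which the authors deposited without normalization, per the file headers. The submitters' processing notes name fastp, STAR 2.7.6a, featureCounts 1.6.4, DESeq2 1.20.0 and GRCh38. The strand setting, the annotation release and how multi-mapping reads were treated are not given in the sources used here. FPKM columns (18), whose headers do not match the labels, and 13 comparisons of groups coded without a key were not used.

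The counts were tested with the edgeR 4.0.16 quasi-likelihood F test (R 4.3.3, limma 3.58.1, TMM factors, filterByExpr, robust). One fit held the 15 LNCaP libraries (16985 genes tested) and another the 6 untreated libraries of both lines (17259 genes). P-values were adjusted by Benjamini-Hochberg over all genes tested, SE is the log2 fold change over the root of F, and intervals are 95%. CPM on the scales of the 2 fits differ slightly. Per-kilobase levels and GC content used GENCODE 29, and promoters came from RefSeq (GRCh38.p14). Replicate pairs differed by more than sampling noise, with a chi-square of 12.01 to 97.59 per degree of freedom in 18 pairs.

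Values in every library are given for the 3 called members of each route with the largest change in each comparison at 20 µM or between the lines, and for others that help a description. The members and gene lists were chosen with earlier results of these data known. Alternatives were DESeq2 size factors in edgeR, no filter on low counts, the DESeq2 1.42.0 Wald test, only the compared groups in the fit, a replicate block, leaving out mitochondrially encoded genes, removing a GC and length trend, and leaving out each library. Total counts of 10013567 to 18445711 set the counting error.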

Additional observations from a re-analysis of the deposited data

Results flagged for a closer look

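In 18 members the step from 10 to 20 µM differed between the drugs, by the interaction term of the edgeR fit at an adjusted p under 0.05, where 32.8% of all genes did. Each value below is the log2 fold change of the genistein step minus that of the baicalein step. A positive value means a smaller fall or larger rise with genistein.

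In 11 members it was positive. The largest was that of CLSPN, 3.12 ± 0.29 (adjusted p = 9.46e-06), from steps of -0.86 with genistein and -3.97 with baicalein. PARP1 had 2.10 ± 0.20 (adjusted p = 9.57e-06), from -0.77 with genistein and -2.87 with baicalein. POLQ had 1.71, from -0.35 with genistein and -2.06 with baicalein, PRKDC 1.58, from -0.67 with genistein and -2.25 with baicalein, and XRCC5 1.12, from -0.16 with genistein and -1.28 with baicalein. ERCC2 had 1.05, from -0.63 with genistein and -1.68 with baicalein. The values were 1.20 for TOPBP1, 0.88 for ATR, 0.73 for PMS2, 0.70 for UNG and 0.45 for LIG3.

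In 7 members it was negative, and the baicalein step was positive in all 7. WEE1 had -1.27 ± 0.42 (adjusted p = 0.0357), from steps of 0.83 with genistein and 2.10 with baicalein. RAD9A had -1.03 ± 0.17 (adjusted p = 0.000557), from -0.06 with genistein and 0.97 with baicalein. The values were -0.78 for RNF8, -0.77 for POLL, -0.56 for PARP2, -0.45 for APTX and -0.44 for TP53BP1.

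The remaining 13 calls held in every alternative tried. The call of TOPBP1 was lost without library 2 of genistein 10 µM, without library 2 or 3 of baicalein 10 µM or without library 2 of genistein 20 µM (adjusted p = 0.0525 to 0.0631, within 0.0123 to 0.0631 over all alternatives), that of PARP2 with no filter on low counts (adjusted p = 0.0527, within 0.0017 to 0.0527 over all alternatives) and that of WEE1 without library 1, 2 or 3 of genistein 10 µM, without library 1 or 2 of baicalein 10 µM, without library 2 of genistein 20 µM, without library 1 or 3 of baicalein 20 µM or with no filter on low counts (adjusted p = 0.0555 to 0.0858, within 0.00181 to 0.0858 over all alternatives). For APTX it was lost without library 3 of genistein 10 µM, without library 2 or 3 of baicalein 10 µM, without library 1 or 3 of genistein 20 µM or with no filter on low counts (adjusted p = 0.0542 to 0.13, within 0.00189 to 0.13 over all alternatives). For TP53BP1 it was lost without library 1, 2 or 3 of genistein 10 µM, without library 2 or 3 of baicalein 10 µM, without library 1, 2 or 3 of genistein 20 µM, without library 2 or 3 of baicalein 20 µM or with no filter on low counts (adjusted p = 0.0555 to 0.176, within 0.0106 to 0.176 over all alternatives).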

How the results depend on the processing

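The number of members called moved by more than 1.5 times in 2 dose comparisons and at 10 µM. The DESeq2 Wald test called 1 member with genistein at 10 µM and 1 with baicalein at 10 µM, where edgeR called 0, and 16 with genistein at 20 µM, where edgeR called 10. Leaving out 1 library gave 5 to 10 calls with genistein at 20 µM, 29 to 38 with baicalein at 20 µM, 21 to 29 between the drugs at 20 µM, 14 to 20 for the difference of the dose steps and 33 to 37 between the lines. In the same order, those fits called 9.58 to 11.1%, 51 to 56%, 42.3 to 48%, 27.4 to 33.4% and 70 to 73.2% of all genes. For the genistein step of 10 to 20 µM the count was 5, against 9 with DESeq2, 16 when the fit held no other group, 8 without mitochondrially encoded genes and 9 with the GC and length trend removed. The cause was not tested. Between PC-3 and LNCaP, RAD9A (-0.043) and HUS1 (-0.14) changed sign with the GC and length trend removed. Calls that passed under every alternative numbered 3 of 10 with genistein at 20 µM, 25 of 37 with baicalein at 20 µM, 20 of 24 between the drugs at 20 µM and 30 of 37 between the lines. The same number was not counted over all genes. Deviations from the group mean correlated at -0.395 to 0.336 between same-numbered libraries over 33 pairs, 8 of them over 0.1. Of 33, 8 correlated best with their own number. The highest correlation between different numbers was 0.449, for baicalein 10 µM replicate 1 and baicalein 20 µM replicate 2. Deviations within a group cancel out, so these values show no steady pairing by number but cannot exclude one. With the replicate number as a block, 9 members were called with genistein at 20 µM (12.9% of all genes) and 34 with baicalein at 20 µM (55% of all genes). Between the drugs at 20 µM it called 24 (45.8% of all genes), and between the lines 36 (74.4% of all genes). The block left uncalled XRCC1 with genistein at 20 µM (adjusted p = 0.0529), RIF1 (0.0501), POLB (0.0625) and MSH3 (0.0716) with baicalein at 20 µM, RAD1 in the baicalein step (0.0687), TP53BP1 in the difference of the steps (0.055), and UNG (0.0642) and RAD9A (0.0734) between the lines. Low counts limit CLSPN with baicalein at 20 µM, where the lowest count was 4.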
